A study of Solanum lycopersicum with 2 samples.

Results

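The cells described here are those of the tomato root in which transcripts of 2 or more different nutrient uptake transporter genes were found together. Of 22634 kept cells in both libraries, 3286 were such members, 1885 of 12403 in replicate 1 and 1401 of 10231 in replicate 2. The members were chosen by measured values. A cell was kept when it held at least 500 UMIs (a UMI is a random tag that lets copies of 1 captured transcript be counted once) and at most 1% of them from plastid or mitochondrial genes, and it was a member when it held a UMI of at least 2 of the genes of the rule. The rule named 6 genes, of which 5 could be counted. These were an ammonium transporter of the AMT1 type (Solyc09g090730), the phosphate transporter genes Solyc09g090070 and Solyc09g090080, the iron transporter IRT1 (Solyc02g069200) and the potassium transporter HAK5 (Solyc12g005670), and the second ammonium transporter gene, Solyc04g050440, was not analysed here. The reference was all other kept cells of the same library.

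Both libraries came from wild-type plants of the cultivar M82 (LA3475), grown on plates of Murashige and Skoog medium. Primary roots were harvested at 7 days after sowing, the last 3 cm of each was digested to protoplasts, cells freed from their walls, and the roots of a sample were pooled. Droplet sequencing of transcript 3′ ends aimed at 10000 cells per library. No treatment, nutrient supply or genotype was varied, so the comparison lies between cells of the same libraries. The labels do not say whether the libraries came from separate growth experiments. In the main comparison, p-values rest on how far the difference between members and other cells varied between these 2 libraries. They also rest on a spread shared by all genes. That variation may be technical. Replicate 1 held 187215851 UMIs and replicate 2 held 81175339, a 2.31-fold difference in depth. Of the kept barcodes, 37 occurred in both libraries. Among these, 1 was a member in both and 12 were members in at least 1.

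Root cells take up ions from the soil solution through proteins of the plasma membrane. Ammonium transporters of the AMT1 family carry nitrogen, proton-coupled phosphate transporters carry phosphorus, IRT1 carries ferrous iron in plants that reduce iron at the root surface, and HAK5 carries potassium at low external supply. In many plants these genes are most active in the epidermis, its root hairs and the outer cortex, and transcripts of several of them rise when the nutrient is scarce.

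The member cells were almost wholly cells with both the ammonium and the phosphate transporter. This pair was found in 1742 members of replicate 1, which was 92.4% of them, and in 1371 members of replicate 2, which was 97.9%. Members with 3 of the genes numbered 118 in replicate 1 and 38 in replicate 2. No cell had more than 3. Asking for 2 or more nutrients in place of 2 or more genes left the members of replicate 1 at 1885 and those of replicate 2 at 1400. The label of the cells therefore held for ammonium and phosphate, and iron and potassium transporters were seen in a minority of them.

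The levels of the genes of the rule are given as a description, since they chose the cells. They are in CPM, the UMIs of a gene scaled to 1000000 UMIs of the genes kept, over all cells of a class summed. The ammonium transporter Solyc09g090730 had 12363 UMIs in replicate 1 and 9893 in replicate 2. Its level was 218 CPM in members of replicate 1 and 439 CPM in members of replicate 2, against 25.1 and 36.5 CPM in the other cells of these libraries. A member held a median of 3 of its UMIs in both libraries, and the richest cell held 37 in replicate 1 and 58 in replicate 2. In both libraries most of its transcripts lay in the members, which held 72.0% and 78.3% of them and 23.7% and 24.5% of the UMIs of all genes.

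The phosphate transporter Solyc09g090070 had 6172 UMIs in replicate 1 and 5988 in replicate 2. Members had 115 and 274 CPM of it, and other cells 10.7 and 19.7 CPM. Both transporters were higher in the shallower replicate 2, in members and in other cells alike. The neighbouring identifier, Solyc09g090080, also a phosphate transporter gene, had 3 UMIs in replicate 1 and 6 in replicate 2, and 1 and 3 of them lay in members. How reads shared by close copies of these genes were assigned is not given in the sources used here, so the near absence of counts for this gene is uncertain.

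IRT1, the iron transporter, was rare and concentrated. It had 258 UMIs in 88 cells of replicate 1 and 95 UMIs in 41 cells of replicate 2. Of these cells, 68 and 34 were members, and they held 89.1% and 92.6% of its UMIs. Its level was 5.64 and 4.99 CPM in members, against 0.203 and 0.119 CPM in other cells. Single cells held up to 24 UMIs of it in replicate 1 and up to 16 in replicate 2. Cells with at least 5 IRT1 UMIs numbered 17 in replicate 1, of which 16 were members, and 5 in replicate 2, all members. Together they held 55.0% of the IRT1 UMIs of replicate 1 and 46.3% of those of replicate 2. Cells with an IRT1 UMI were deep. Their median depth was 34648.5 UMIs in replicate 1 and 11135 in replicate 2.

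HAK5, the potassium transporter, was unlike in the 2 libraries. It had 535 UMIs in 327 cells of replicate 1 and 63 UMIs in 40 cells of replicate 2, although the depth of the libraries differed only 2.31-fold. Members had 8.36 and 2.95 CPM of it, and other cells 1.41 and 0.186 CPM. It was found in 193 members of replicate 1, 10.2% of them, and in 31 members of replicate 2, 2.21% of them. IRT1 and HAK5 were seen in the same cell in 2 cells of replicate 1 and 0 of replicate 2. In replicate 1 this was 2.27% of cells with IRT1, close to the 2.64% of all kept cells that had HAK5, so these counts show neither a shared nor a separate occurrence.

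**Figure D1:**
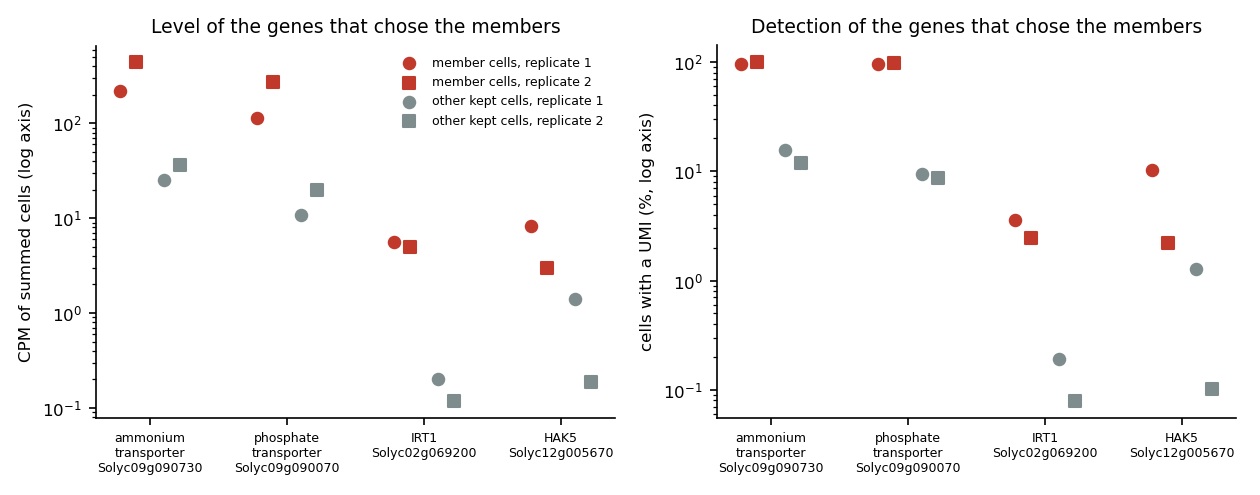
Level in CPM of summed cells (left, log axis) and percent of cells with a UMI (right, log axis) of 4 genes of the rule in member cells (red) and other kept cells (grey), for replicate 1 (circles) and replicate 2 (squares). The genes chose the members, so the gap between red and grey is given as a description. In members IRT1 stands at 5.64 and 4.99 CPM and HAK5 at 8.36 and 2.95 CPM.

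The share of cells that were members was higher among deeper cells. It was 15.2% in replicate 1 (exact 95% binomial interval 14.6 to 15.8%) and 13.7% in replicate 2 (13.0 to 14.4%), a mean of 14.4% ± 1.06 (SD, n = 2). The intervals cover counting error only. The median depth of members was 16485 UMIs in replicate 1 and 10936 in replicate 2, against 6511 and 3196 in other cells, ratios of 2.53 and 3.42. They also had more genes per cell, 4039 and 3197 against 2458 and 1613. Replicate 1 held 1.79% members among cells under 2000 UMIs, 4.94% from there to 5000, 15.4% from 5000 to 10000 and 25.4% at 10000 or more. In replicate 2 the shares over the same classes were 3.21, 8.10, 16.96 and 31.3%.

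Each cell was then thinned to 2000 UMIs, and the 2128 and 3241 shallower cells were left out. Members now made up 355 of 10275 cells in replicate 1, 3.45% (3.11 to 3.83%), and 419 of 6990 in replicate 2, 5.99% (5.45 to 6.58%). Unthinned, the same cells held 17.98 and 18.56% members, so replicate 2 was the higher as soon as the shallower cells were left out. The part of high-count droplets that hold more than 1 cell in the member share was not tested, since doublets were not removed.

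The joint detection of the ammonium and phosphate transporters in the thinned cells is given as a description, since these genes chose the members and cells are not replicates. The ammonium transporter was detected in 41.8% of the 780 cells with the phosphate transporter in replicate 1, against 10.1% of the 9495 cells without it. In replicate 2 it was detected in 49.3% of 828 cells with the phosphate transporter, against 10.4% of 6162 cells without it. The phosphate transporter was detected in 25.3 and 39.0% of cells with the ammonium transporter, against 5.05 and 7.07% of cells without it. Among the 24 and 17 thinned cells with IRT1, the ammonium transporter was detected in 29.2 and 29.4%.

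**Figure D2:**
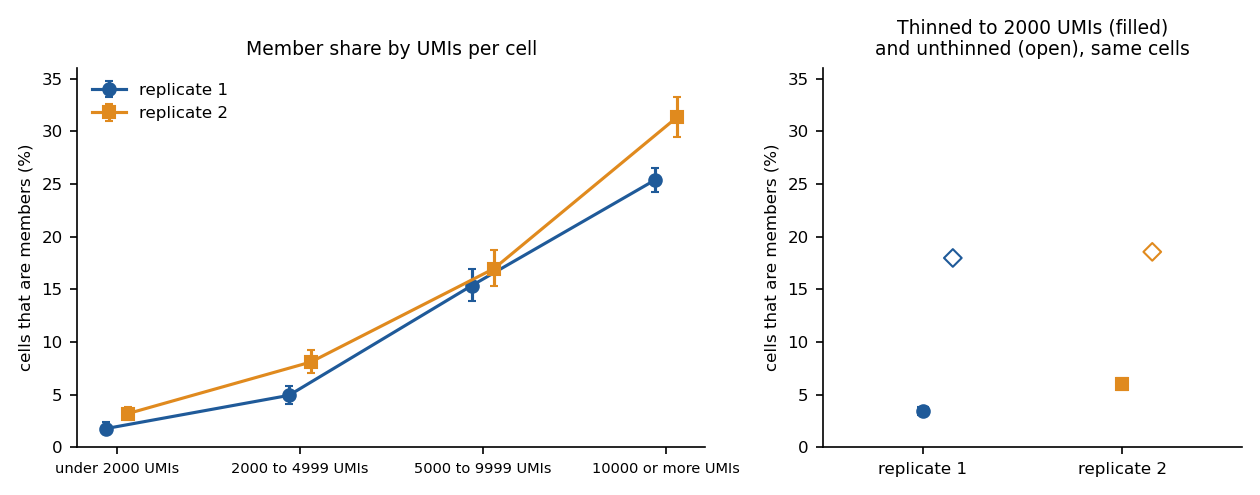
Percent of kept cells that are members by UMIs per cell (left), and after thinning each cell to 2000 UMIs (right, filled) beside the unthinned share of the same cells (right, open), for replicate 1 (blue) and replicate 2 (orange). Bars are exact 95% binomial intervals. The share climbs with depth in both replicates, to 25.4 and 31.3% at 10000 or more UMIs, and falls to 3.45 and 5.99% at equal depth.

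Cells just inside the rule were set beside those just outside it. Cells with exactly 2 of the genes numbered 1767 and 1363, with a median of 5 and 6 UMIs of the rule genes per cell. Cells with 1 of the genes were more numerous, 2796 and 1846, with a median of 1 such UMI. Their median depth was 16096 and 10829 UMIs with 2 genes, and 10954.5 and 6021.5 UMIs with 1. Their ammonium transporter level was 225 and 449.6 CPM with 2 genes, and 70.2 and 110.1 CPM with 1. In 290 members of replicate 1 and 213 of replicate 2 membership rested on 2 UMIs alone.

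The cells fell into 31 clusters when grouped without the genes of the rule, and the members were spread unevenly over them. Of these clusters, 27 had at least 10 cells in each library. In 5 of the 27, at least 20% of cells were members in both libraries, and in 21 fewer than 10% were. The member shares of the 2 libraries had a Spearman correlation of 0.829 over these 27 clusters, which share their cells' depth within a cluster. Computed on thinned cells it was 0.407. As many as 14 of the 31 clusters drew over 80% of their cells from 1 library, and these held 53.8% of the members, so many of the clusters are also a library. No annotation of the gene identifiers was at hand to name cell types, and clusters are called by number, except that cluster 24 was the one with the most SlASFT, the feruloyl transferase of exodermal suberin.

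Cluster 2 stood apart, with the highest member share of the clusters compared in both libraries. It held 541 members among 889 cells of replicate 1, 60.9% (57.6 to 64.1%), and 445 among 679 cells of replicate 2, 65.5% (61.8 to 69.1%). This was 28.7 and 31.8% of all members. The ammonium transporter reached 888 and 1048 CPM in its cells and the phosphate transporter 335 and 578 CPM. It kept its place at equal depth, with 25.8 and 39.9% members after thinning. In the same cluster 4 and 2 IRT1 UMIs were counted and 34 and 7 HAK5 UMIs. Protoplasting-induced genes are genes that the study listed as raised by the digestion of walls. In this cluster they made up 19.8 and 21.7% of the UMIs, and their part in the result was not tested.

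Clusters 5, 14 and 12 followed the same pattern at lower levels. Cluster 5 had 22.8% members among 1001 cells of replicate 1 and 31.7% among 82 cells of replicate 2. The ammonium transporter was at 123 and 240.3 CPM there, and the phosphate transporter at 106 and 188 CPM. Cluster 12 lay wholly in replicate 2, with 329 members among 907 cells, 304 CPM of the ammonium and 276 CPM of the phosphate transporter. Cluster 12 held 26 of the 63 HAK5 UMIs of replicate 2, and clusters 5 and 14 held 141 and 64 of the 535 in replicate 1. Clusters 1 and 25 held another 70 and 53 in replicate 1.

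IRT1 was counted mainly in other clusters. Cluster 10, with 34.0 and 29.7% members among 503 and 475 cells, held 135 of the 258 IRT1 UMIs of replicate 1 and 27 of the 95 of replicate 2. Cluster 1 held another 88 in replicate 1, and cluster 11, which had 1 cell in replicate 1 and 925 in replicate 2, held 36 in replicate 2. Cluster 8 held 19 in replicate 2, at 9.06 CPM, although 2.80% of its cells there were members. The HAK5 count of cluster 10 was 10 and 4 UMIs. In cluster 10 the ammonium transporter stood at 105 and 183 CPM and the phosphate transporter at 40.9 and 70.8 CPM. Cells of cluster 1 in replicate 1 were deep, with a median of 20853 UMIs. Their member share of 35.3% fell to 1.72% after thinning, and that of cluster 10 to 3.58 and 3.76%.

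The transporters also separated in cluster 29. There the ammonium transporter reached 421 and 692 CPM and was found in 57.8 and 60.0% of 128 and 50 cells, while the phosphate transporter stood at 34.8 and 77.9 CPM and was found in 14.1 and 14.0%. Only 10.2 and 14.0% of these cells were members. Over the 27 clusters the levels of both genes had a Spearman correlation of 0.846 in replicate 1 and 0.824 in replicate 2, a description of points that share libraries and depth. At the low end, cluster 3 had 6.81 and 7.38 CPM of the ammonium transporter, with a UMI in 5.16 and 2.95% of cells whose median depth was 6335.5 and 2628.5 UMIs. Shares as low as these are not read as expression, and free RNA was not measured here.

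**Figure D3:**
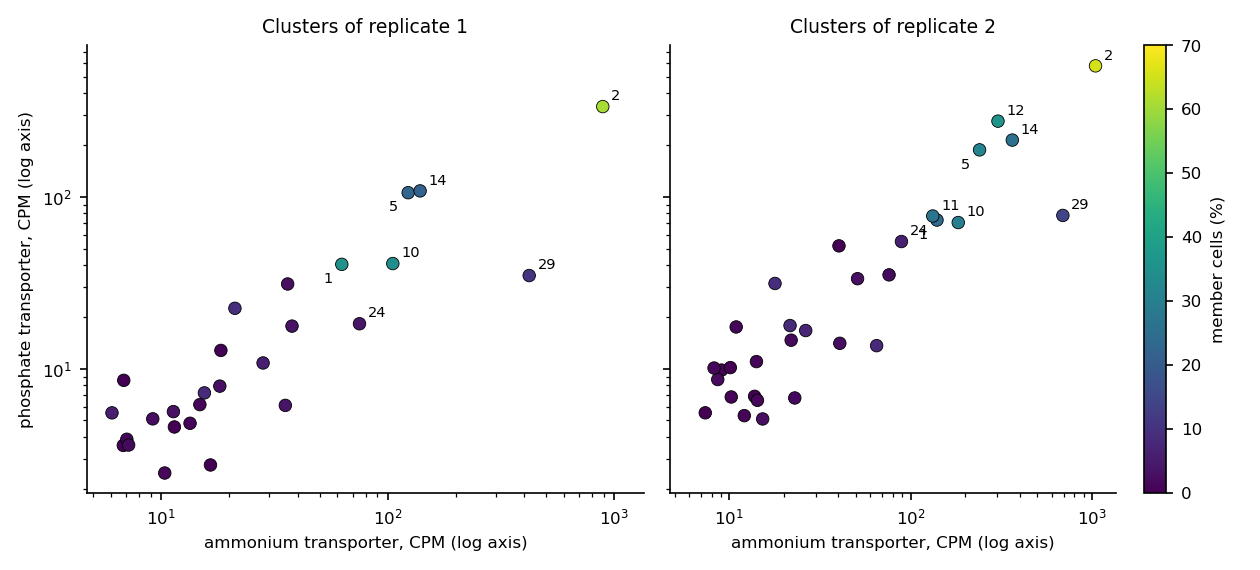
Level of the phosphate transporter Solyc09g090070 against that of the ammonium transporter Solyc09g090730 in each cluster with at least 10 cells of the library (CPM, log axes), coloured by the percent of cells that are members. Cluster 2 lies at the top right in both replicates, at 888 and 335 CPM in replicate 1 and 1048 and 578 CPM in replicate 2, and cluster 29 lies to the right of and below the trend.

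**Figure D4:**
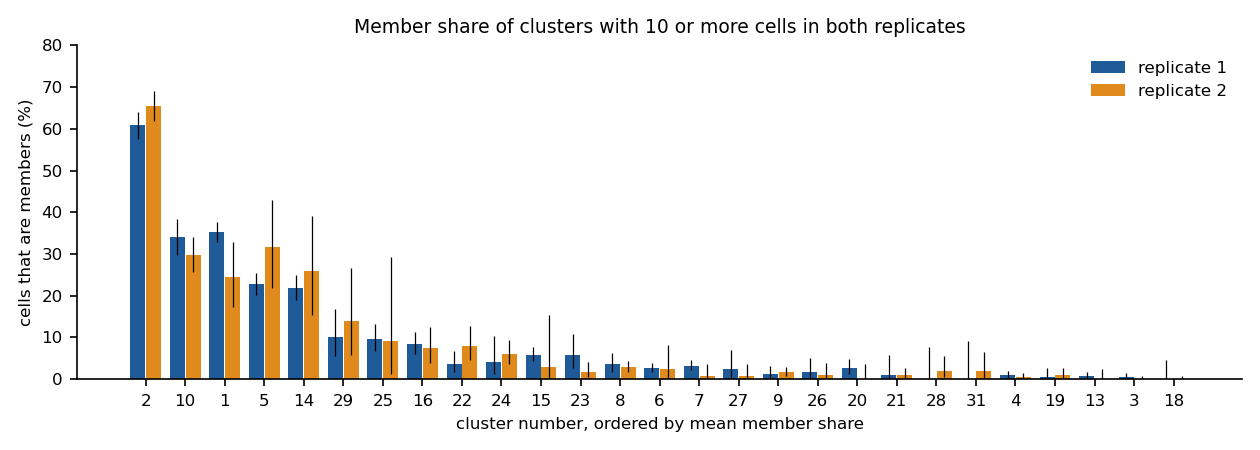
Percent of cells that are members in the 27 clusters with at least 10 cells in both replicates, ordered by the mean share, for replicate 1 (blue) and replicate 2 (orange). Bars start at 0 and lines are exact 95% binomial intervals. Cluster 2 has 60.9 and 65.5% members, and in 21 clusters the share is under 10% in both replicates.

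To ask what else set the members apart, their summed counts were compared with those of the other cells, without the genes of the rule. Of 17983 genes tested with edgeR, 5272 were higher in members, 29.3% of those tested, and 6021 were lower, 33.5% (quasi-likelihood test, library as block, Benjamini-Hochberg adjusted p under 0.05). Of these 11293 genes, 11030 moved the same way in both libraries. With calls this frequent, a single gene called is no rarity, and the size of the change and the value in each library carry the description. With the depth class as a block 4011 of 13548 genes (29.6%) were higher and 4662 (34.4%) lower. With the cluster as a block 1222 of 10231 (11.9%) were higher and 2316 (22.6%) lower. Sums of 1 library in several classes or clusters share that library, so p-values of these last fits are too small.

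The genes with a product description at hand came from the study's suberin co-expression module and its late exodermal genes. The late exodermal genes were chosen by the study on these libraries, and neither list was made for uptake cells. Of 202 described genes 162 were tested. The most raised of them was a GDSL esterase/lipase (Solyc06g065530), of a family that cuts or transfers acyl esters. It had 25.2 and 67.2 CPM in members, against 6.67 and 13.1 CPM in other cells. The log2 fold change was 2.37 ± 0.15 (SE), with an edgeR adjusted p of 4.65e-05. Members were the higher in both libraries, which was common, as 11030 of the 11293 genes called moved the same way in both. With the cluster as a block the log2 fold change of Solyc06g065530 was 0.71.

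All 3 glutathione S-transferases of these lists were higher in members, as were 29.3% of all genes tested. The group of these 3 was singled out after its values were seen. These enzymes join glutathione to reactive compounds. Solyc06g009020 was the most abundant, at 2019 and 2048 CPM in members and 1114 and 1407 CPM in other cells. Its log2 fold change was 0.93 ± 0.12. It was 0.42 with the depth class as a block and 0.21 with members chosen after thinning, where the call was lost (edgeR adjusted p = 0.224). The log2 ratios of its plain CPM, without TMM scaling, were 0.86 in replicate 1 and 0.54 in replicate 2. Solyc10g084400 had 244 and 438 CPM in members and 93.5 and 167 CPM in other cells, with a log2 fold change of 1.62 ± 0.10. Solyc07g056500 had 20.4 and 27.4 CPM in members and 9.66 and 9.34 CPM in other cells, with a log2 fold change of 1.54 ± 0.16. The edgeR adjusted p was at most 0.000557 for the 3 genes. Their median log2 fold change of 1.54 stood beside one of -0.09 over all genes tested. Within clusters the changes were 0.29, 0.46 and 0.21, and that of Solyc07g056500 no longer passed the test.

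Other described genes were higher in members too. An ELI3 gene (Solyc11g011340), named after an elicitor-induced gene of parsley, had 160 and 141 CPM in members and 51.6 and 52.7 CPM in other cells, a log2 fold change of 1.76 ± 0.10. A pathogenesis-related protein of the STH-2 type (Solyc09g090980) had 240.4 and 464 CPM in members and 83.1 and 207 CPM in other cells. Its log2 fold change of 1.58 ± 0.11 fell to 0.80 with the depth class as a block. It did not pass within clusters, at 0.11, or with members chosen after thinning, at 0.30. An auxin induced-like protein (Solyc07g048070) had 41.8 and 145 CPM in members and 24.3 and 42.2 CPM in other cells. Its log2 fold change was 1.51 ± 0.23, and the log2 ratios of its plain CPM were 0.78 in replicate 1 and 1.78 in replicate 2. It no longer passed within clusters, at 0.38, without cluster 2, at 0.57, or with members of 3 or more genes, at 0.39. In the fit by 3 or more genes, cells with 2 genes of the rule counted as other cells.

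A cytochrome P450 (Solyc07g062500), a member of a large family of oxygenases, had 88.3 and 160 CPM in members and 46.8 and 73.0 CPM in other cells. An aldehyde dehydrogenase (Solyc06g060250), which oxidises aldehydes to acids, had 64.6 and 113 CPM in members and 42.1 and 56.0 CPM in other cells. Their log2 fold changes were 1.25 ± 0.11 and 1.04 ± 0.13, and within clusters, at 0.28 and 0.05, neither passed. Smaller changes were those of a glycine-rich protein (Solyc11g013100), 0.90 ± 0.10, of a dehydratase of very-long-chain fatty acid elongation (Solyc04g014370), 0.63 ± 0.09, and of a thiol reductase (Solyc06g007340), 0.62 ± 0.09. With members chosen after thinning the dehydratase no longer passed, at 0.27, and with members of 3 or more genes neither the thiol reductase, at 0.26, nor the aldehyde dehydrogenase, at 0.026, did. All 12 of these higher genes passed edgeR's test with an adjusted p of at most 0.00134.

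Fewer described genes met the rule on the low side, 5 in all. A protein kinase (Solyc01g108280) had 8.46 and 11.5 CPM in members and 37.3 and 72.0 CPM in other cells, a log2 fold change of -2.16 ± 0.14. A nodulin26-like intrinsic protein (Solyc08g076880), of a channel family that passes water and small uncharged solutes, had 25.5 and 76.8 CPM in members and 101 and 441 CPM in other cells. Its log2 fold change was -2.03 ± 0.13, and it was -0.85 within clusters. A lipid transfer protein (Solyc09g065430) had 7.82 and 55.1 CPM in members and 32.5 and 149.8 CPM in other cells, and its log2 fold change of -1.50 ± 0.17 did not hold within clusters, at -0.36. Spermine synthase (Solyc03g007240), which makes the polyamine spermine, changed by -1.01 ± 0.10, and a spliceosomal snRNP protein (Solyc10g081370) by -0.55 ± 0.11. All 5 passed with an edgeR adjusted p of at most 0.00464.

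Of all genes with at least 20 CPM, the most changed had no description at hand, as the tables do not pair identifiers with names. Solyc07g008600 had 39.6 and 74.9 CPM in members and 4.20 and 5.36 CPM in other cells, a log2 fold change of 3.74 ± 0.17. With members of 3 or more genes it was 0.19 and did not pass (edgeR adjusted p = 0.667). Solyc08g061920 had 354 and 431 CPM in members and 42.3 and 28.9 CPM in other cells, a log2 fold change of 3.71 ± 0.22. With members of 3 or more genes its direction turned, to -1.17. The other cells of that fit, 12285 and 10193, included the 1767 and 1363 cells with 2 genes. On the low side, Solyc03g111810 had 0.932 and 9.92 CPM in members and 22.0 and 93.9 CPM in other cells, and Solyc11g013310 had 4.78 and 7.88 CPM in members and 57.5 and 101 CPM in other cells. Their log2 fold changes were -3.50 ± 0.28 and -3.40 ± 0.11. The edgeR adjusted p was at most 0.000103 for these 4 genes.

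**Figure D5:**
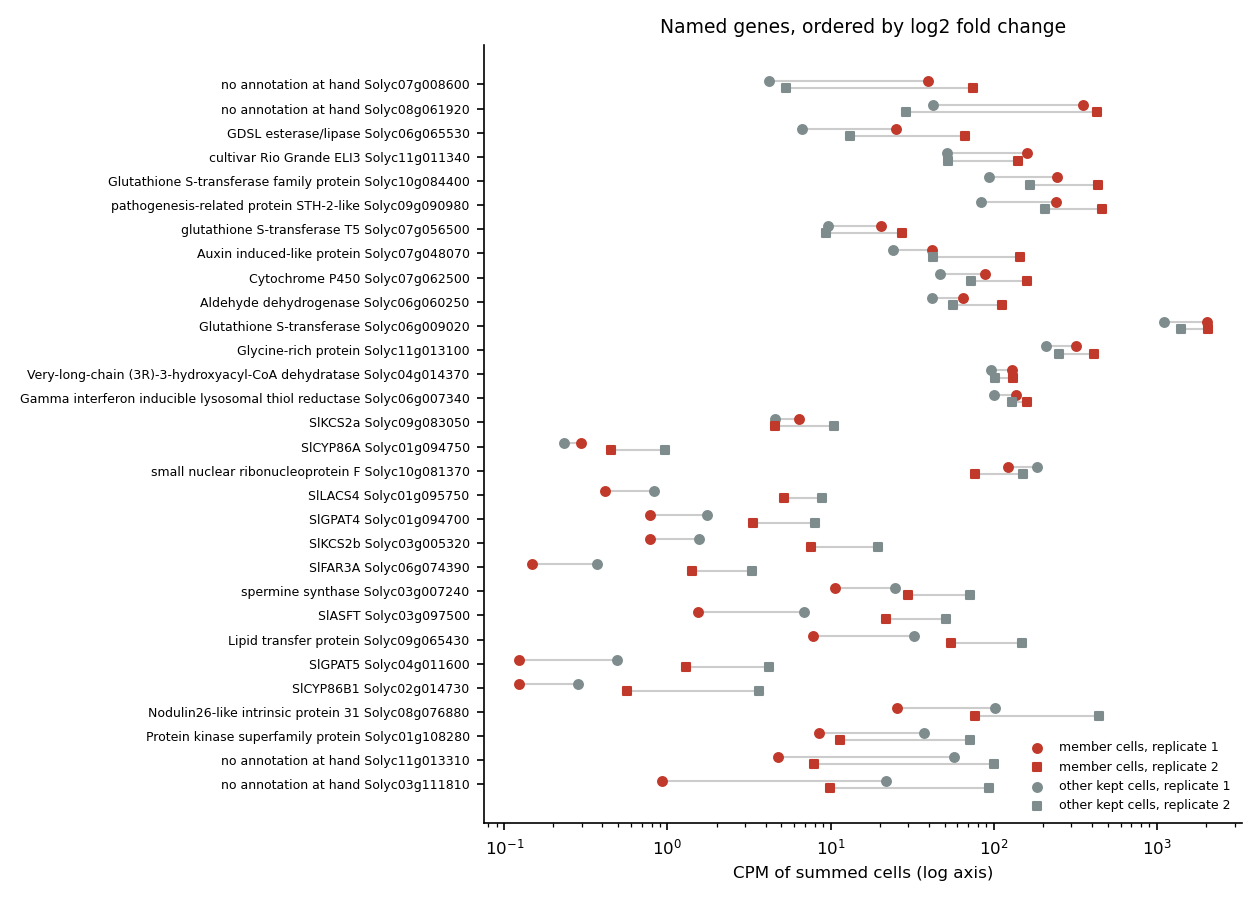
Level of the named genes in member cells (red) and other kept cells (grey) of replicate 1 (circles) and replicate 2 (squares), in CPM of summed cells on a log axis, ordered from the highest to the lowest log2 fold change. The top rows reach 3.74 and 3.71 and the bottom row -3.50. In the middle, SlKCS2a and SlCYP86A have the opposite order in the 2 replicates.

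Suberin genes, which mark the exodermis, the outer cortical layer that builds a suberin lamella, were low in the members. Of 10 genes listed 9 were tested, and SlMYB92 was not. SlFAR3B, which the study also names, was not in this list. Of the 9 tested, 7 were lower (33.5% of all genes tested were), 0 were higher and 2 did not pass. Their median log2 fold change was -0.995, against -0.09 over all genes tested. SlASFT (Solyc03g097500) had 1.54 and 21.8 CPM in members and 6.83 and 51.4 CPM in other cells, a log2 fold change of -1.36 ± 0.22 with an edgeR adjusted p of 0.00167. Its transcripts lay mainly in cluster 24, at 1781 and 3201 CPM, and no other cluster with at least 10 cells of the library had more than 4.20 CPM in replicate 1 or 20.4 CPM in replicate 2. Members made up 4 of 96 and 19 of 312 cells of the SlASFT-rich cluster 24.

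Among enzymes of aliphatic suberin, 6 others passed edgeR's test and were lower. SlCYP86B1, a fatty acid hydroxylase, had 0.123 and 0.567 CPM in members and 0.283 and 3.63 CPM in other cells, a log2 fold change of -1.98 ± 0.43. The acyltransferases SlGPAT5 and SlGPAT4 changed by -1.52 ± 0.31 and -0.99 ± 0.20. The reductase SlFAR3A changed by -1.004 ± 0.309 (0.47 with members of 3 or more genes), the elongase SlKCS2b by -0.995 ± 0.173 and the acyl-CoA synthetase SlLACS4 by -0.59 ± 0.21, with an edgeR adjusted p of 0.042 for SlLACS4. SlKCS2a had 6.37 and 4.59 CPM in members and 4.57 and 10.5 CPM in other cells, and SlCYP86A lay under 1 CPM in every sum. For both genes the 2 libraries pointed opposite ways. With the depth class as a block only 5 of these genes could be tested and 2, SlASFT at -0.86 and SlGPAT4 at -0.56, stayed lower. With the cluster as a block 0 of the suberin genes could be tested, and that fit held cluster 24 of replicate 2 only. With members of 3 or more genes, 118 and 38 cells, none of the 7 passed, and cells with 2 genes were among the other cells.

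Outside the suberin genes, 133 module genes were tested, of which 57 were lower (42.9%), 18 higher (13.5%) and 58 did not pass, with a median log2 fold change of -0.61. Over all genes tested 33.5% were lower and 29.3% higher. With the depth class as a block 28 of 80 module genes were lower (35.0%), beside 34.4% of all genes in that fit, and 17 were higher. Of 20 late exodermal genes outside both, 8 were lower and 5 higher, shares of 40.0 and 25.0% that lie near those of all genes. With the depth class as a block 3 of 14 were lower and 4 higher. Among described members of these lists, grouped by their annotation after values were seen, 5 of 10 lipid transfer proteins were lower and 0 higher, and 1 of 7 was lower within depth classes. Of 7 small secreted peptide genes 6 were lower, but 0 of the 6 that could be tested within depth classes. Of 6 tested genes annotated as transporters, facilitators or intrinsic proteins, 3 were lower and 0 higher, and 1 of 3 was lower within depth classes. Other groups were mixed. Of 7 MYB factors 4 were lower and 1 higher. Of 7 cytochrome P450s, SlCYP86A and SlCYP86B1 among them, 3 were lower and 2 higher. Of 5 GDSL esterases 1 was lower and 1, Solyc06g065530, higher, with a median log2 fold change of -0.58. Of 5 laccases 1 was lower and 0 higher.

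Protoplasting-induced genes went the other way. They made up 7.81 and 11.3% of UMIs in members, against 3.57 and 3.69% in other cells. They were left out of the fits above. In a fit that kept them, 437 of 755 were higher in members (57.9%), 114 were lower (15.1%) and the median log2 fold change was 0.84. Over all 18738 genes of that fit 27.9% were higher and 31.9% lower. By cluster they made up 19.8 and 21.7% of UMIs in cluster 2, 14.4% in cluster 12 of replicate 2, 12.6 and 13.1% in cluster 5 and 9.26 and 11.1% in cluster 14. In other clusters with many members they were less abundant, at 4.84% in cluster 1 of replicate 1, 5.09% in cluster 11 of replicate 2 and 3.78 and 4.47% in cluster 10. Cluster 29, with 13 and 7 members, had 9.57 and 11.5%. The part of this response in the other differences was not tested. Organelle transcripts were scarcer in members, at 0.0060 and 0.0090% of UMIs, against 0.0108 and 0.0175% in other cells.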

How the data were processed

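The deposited tables held raw UMI counts per gene and cell barcode, without normalization, of 2 libraries with 34716 genes, which the authors had made with cellranger (6.0.1 per the file headers), build SL4.0 and ITAG4.1 gene models. Left out were organelle genes, the genes of the rule, genes without counts in more than 3 cells, and 821 genes that protoplasting induces, from the study's list. This left 21676 genes. Doublets were kept, since the study names no step against them. The members and gene lists were chosen with earlier results of these data known.

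Cells are not replicates, so counts were summed per library over members and over other cells and tested with edgeR 4.0.16 (TMM, filterByExpr, quasi-likelihood F test) in R 4.3.3. Library was a block, because members and other cells of a library share it. The fit leans on the spread shared by all genes. A standard error is the absolute log2 fold change divided by the root of its F statistic. Clusters came from the Leiden method (leidenalg 0.10.2, 2000 variable genes centred within library, 35 components, 20 neighbours, resolution 1, seed 1). Binomial intervals are exact (Clopper-Pearson), and thinning used seed 1. On simulated data with 18000 genes, of which 200 were changed at a dispersion of 0.05, 96% of 4-fold and 13% of 2-fold changes were called. In the real data 11293 of 17983 genes were called, so the simulation is unlike them. It does not give the share of real changes that was found.

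Named genes were the genes of the rule, the suberin genes and, among described genes with an adjusted p under 0.05, the same direction in both libraries and at least 20 CPM in both (in members if higher, in other cells if lower), up to 12 of the highest and 8 of the lowest log2 fold changes, with 2 identifiers per direction among all genes. The gene table at hand matched 0 identifiers, so descriptions came from the study's supplementary lists, and lists by annotation words could not be drawn. Alternatives were depth class or cluster as block, members chosen after thinning or by 3 genes or 4 nutrients, 1000 UMIs, up to 5% organelle UMIs, genes that protoplasting induces kept, DESeq2 1.42.0 size factors and Wald test, all genes with counts tested, no replicate block and each library left out. Leaving out cluster 2 or clusters with over 80% of cells from 1 library was added after seeing the data. When members were chosen by 3 genes or after thinning, cells no longer members were counted among the other cells of that fit.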

Additional observations from a re-analysis of the deposited data

How the results depend on the processing

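The count of 5272 genes higher and 6021 lower in members stayed within 1.5 times under most alternatives. It was 1222 and 2316 with the cluster as block, 1848 and 2924 with members of 3 or more genes, and 760 and 645 with no replicate block, where differences between the libraries enter the spread by construction. Of the 1222 and 2316 genes, 1219 and 2002 were also called in the same direction by the fit without clusters. The share of calls that were higher was 46.7%, against 54.1% with no replicate block, 53.7% by the Wald test of DESeq2, 34.5% with the cluster as block and 38.7% with 3 or more genes. The share of members was 4.72% after thinning, 0.661% with 3 or more genes and 10.8% without cluster 2, against 14.4%, and between 13.7 and 15.2% with 1 library left out. Of 404 tested values of the 30 named genes under alternatives, 340 kept their direction and side of the threshold, 55 lost the call, 1 gained it and 8 changed sign. Those 8 were SlKCS2a at 0.62 with 3 or more genes, 0.0060 with at least 1000 UMIs, 0.19 without cluster 2 and 0.022 with DESeq2 size factors, SlFAR3A at 0.47 and Solyc08g061920 at -1.17 with 3 or more genes, SlCYP86A at 0.59 after thinning and SlLACS4 at 0.059 with depth class as block. With 1 library left out, the value was the log2 ratio of plain CPM in the other library, without TMM scaling or a test. Set beside the TMM-scaled changes, 36 of 60 such values differed by more than the SD of the libraries. The difference in scaling enters these 36, so they are not read as an effect of leaving out a library. Of the 60 values, 2 had the other sign, SlKCS2a at 0.48 and SlCYP86A at 0.34 without replicate 2. The cause of these 2 changes of sign was not tested. The 118 and 38 cells with 3 genes, and the 63 HAK5 and 95 IRT1 UMIs of replicate 2, limit what depth allows to be said of iron and potassium.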
